A study of Mus musculus with 2 samples.

Results

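The genes described here are the intergenic long noncoding RNA genes (lincRNA) that were detectably transcribed in the mouse adrenal gland. They were chosen by annotation and by level: every annotated transcript had to be labelled lincRNA, and the gene had to reach 1 TPM (the share of all transcripts, corrected for their length, on a fixed scale) in both libraries. A fixed set of well-known noncoding genes was left out, namely Malat1, Neat1, Meg3, Rian, Mirg, H19, Peg13, Gas5, Dleu2, Rmrp, Rpph1, Terc and all host genes named Snhg or Mir...hg. Only the symbols in the tables were searched. Carmn and Gm14005, with the RefSeq synonyms Mir143hg and Mir4435-2hg, therefore stayed in. The rule found 116 genes among 5844 genes with lincRNA transcripts only and 55450 genes in all. Of 126 lincRNA genes that reached the level, 10 were on the excluded list. Because TPM in these libraries chose the members, their level is a description and supports no comparison.

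Total RNA was measured in adrenal gland from 2 months old males of the strain B6CASTF1/J, a first-generation cross of C57BL/6J with CAST/EiJ. All samples formed 1 group of 2 libraries, labelled biological replicates 1 and 2, and the labels name no treatment. The kit was directional and took 300 ng of RNA after ribosomal RNA reduction. The tissue descriptions give the replicates different animal numbers, but both share 1 donor identifier, so the spread between them may be technical. Replicate 2 against replicate 1 is therefore 1 library against 1 library, and no difference below has a test.

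A lincRNA is a transcript longer than a small RNA, with no known protein, made from a gene that lies apart from protein-coding genes. Most are made by RNA polymerase II, spliced, and present at lower levels than messenger RNA. Some work as scaffolds or decoys for proteins, some bind microRNAs, some act on the gene next door, and for many no function is known. In the adrenal gland, the cortex makes steroids and the medulla makes catecholamines.

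The tables assigned 36177133 expected counts to genes in replicate 1 and 34143873 in replicate 2. All 8 adrenal cortex markers were present, with summed levels of 14864 and 16476 TPM, as were all 8 chromaffin cell markers with 2137 and 1878 TPM. All 7 brown adipocyte markers were also above 1 TPM, and their sum was 1545 TPM in replicate 1 and 787 TPM in replicate 2. All 5 red cell markers were present at summed levels of 1949 and 1174 TPM. Of 6 liver markers, 1 reached 1 TPM in both libraries, and Alb had 0.88 and 5.06 TPM. Of 5 lymphocyte markers only Ighm did, at 12.6 and 13.5 TPM, while Ms4a1 had 0.04 and 0.11 TPM. In bulk tissue, fewer cells of a type and less RNA per cell cannot be told apart.

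The members had a median of 2.47 TPM (quartiles 1.72 and 4.46). It was 9.77 TPM over 11928 genes with a protein-coding transcript and 2.44 TPM over 95 genes with antisense transcripts only, all at the same threshold. The cut at that threshold shapes each of these medians, so they describe the sets and support no comparison. By mean TPM over the libraries, 38 members were under 2, 53 were between 2 and 5, 10 were between 5 and 10, 8 were between 10 and 20, 5 were between 20 and 100, and 2 were above 100. The members just inside the threshold were Dbpht2, with 1.09 and 1.01 TPM in replicates 1 and 2, Gm43848, with 1.01 and 1.52 TPM, and Gm38399, with 1.02 and 1.10 TPM. Just outside lay A730063M14Rik, with 2.47 and 0.99 TPM, Tbx3os2, with 0.97 and 1.15 TPM, and Gm13387, with 0.95 and 1.49 TPM. With genes on the excluded list counted too, a further 11 lincRNA genes reached 1 TPM in replicate 1 alone and 18 in replicate 2 alone.

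**Figure D1:**
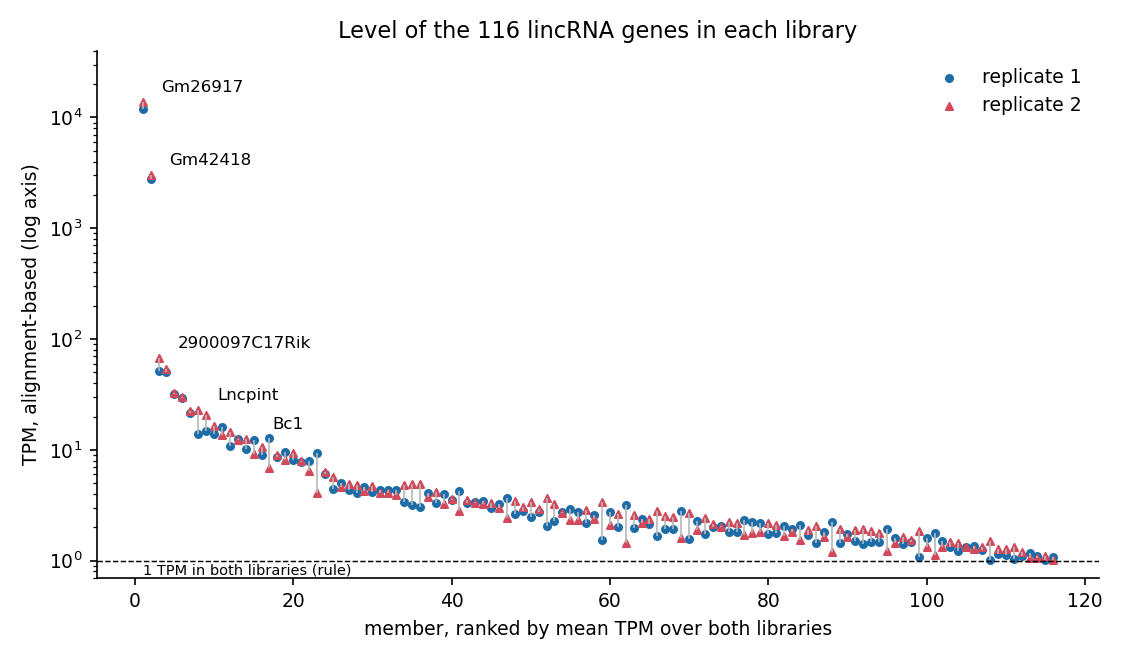
Level of each of the 116 members (x axis, ranked by mean TPM) in TPM on a log axis, with circles for replicate 1, triangles for replicate 2 and a grey line joining them; the dashed line is the threshold of 1 TPM. Gm26917 and Gm42418 stand above 1000 TPM, and 91 members lie under 5 TPM.

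Nearly all RNA assigned to the members came from 2 neighbouring genes on chromosome 17, Gm26917 and Gm42418. Gm26917 (chr17:39843013-39846341, mm10, plus strand) had 12046 and 13773 TPM in replicates 1 and 2. Gm42418 (chr17:39846958-39848788, plus strand) had 2772 and 3000 TPM. Together they held 97.4% of the members' expected counts in each library, which was 3.80% of all counts in replicate 1 and 4.27% in replicate 2. The other 114 members summed to 585 and 625 TPM, or 0.103% and 0.113% of all counts. RefSeq lists Gm42418 under the symbol Rn18s-rs5, a ribosomal RNA related pseudogene at chr17:39846354-39848202 of GRCm38.p6. Its bases 1 to 1244 are the exact reverse complement of a row that the annotation labels rRNA, CT010467.1, which itself held 82 and 92 counts. This match alone does not tell which of the strands is that of ribosomal RNA, and Gm42418 cannot be called antisense from it. The stretch below shows the end of that match, with the matched bases in capitals (chr17:39848142-39848231, plus strand, GENCODE M21 transcript).
Gm42418: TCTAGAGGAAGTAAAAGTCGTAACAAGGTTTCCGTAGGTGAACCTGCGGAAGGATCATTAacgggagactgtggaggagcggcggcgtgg
The libraries had been depleted of ribosomal RNA before sequencing. All sums over the members below therefore leave the pair out or name it.

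Next in level came 2900097C17Rik (chr2:156388065-156392979, minus strand), which RefSeq names Norad. Norad is an abundant cytoplasmic RNA that binds Pumilio proteins, repressors of messenger RNAs, through many copies of a short element. It had 51.9 and 67.5 TPM (59.7 ± 10.98, SD, n = 2). Within that level it had 0.32 and 6.46 TPM on a second transcript, of 339 bases. Its leading transcript, of 1 exon and 4915 bases, held 11 copies of the Pumilio element TGTANATA, searched on the transcript strand. Among 106 lincRNA genes with a leading transcript of 4000 to 6000 bases, 38.7% held the element at least at 1 position, the median was 0 and the highest other number was 4. Of the 116 members, 93 held none. The window with the most elements, 3 in 300 bases, is shown with the elements in capitals (chr2:156391349-156391648, minus strand, GENCODE M21 transcript).
2900097C17Rik: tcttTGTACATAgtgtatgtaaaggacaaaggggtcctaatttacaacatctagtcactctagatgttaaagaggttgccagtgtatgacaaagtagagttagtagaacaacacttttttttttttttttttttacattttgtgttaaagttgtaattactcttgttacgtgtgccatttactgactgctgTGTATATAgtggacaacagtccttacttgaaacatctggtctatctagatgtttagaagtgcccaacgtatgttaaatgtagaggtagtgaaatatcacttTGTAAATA
Gm7292 (chr6:117716342-117718868, plus strand) repeats bases 19 to 2553 of this transcript, with 99.2% identity over 2537 bases, and it held 9 elements. It was listed at 8.60 and 9.04 TPM. Reads from the shared stretch could be split between the 2 genes by the quantifier, so the level of Gm7292 is uncertain. The level of 2900097C17Rik is open to the same split.

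1810058I24Rik (chr6:35252654-35263496, plus strand) had 50.4 and 53.7 TPM. The label lincRNA does not hold in RefSeq for this gene, which lists it as protein-coding with the synonym Stmp1, a small mitochondrial membrane protein. The same was true of Tmem250-ps (chr2:26136814-26140521, minus strand), at 29.7 and 29.9 TPM, which RefSeq also lists as protein-coding. In all, 75 members matched a RefSeq gene by symbol or synonym on the same chromosome, and of these 61 were lncRNA, 10 protein-coding, 3 pseudogenes and 1 a transcribed pseudogene. Among the 10 were also Gm37494, D930016D06Rik (Thoc2l in RefSeq), Gm38399 (a synonym of Nav1) and Dbpht2.

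1700020I14Rik (chr2:119594297-119607502, plus strand) is Oip5os1 in RefSeq, with the synonym Cyrano. Cyrano is known for a conserved site that pairs with the microRNA miR-7 and leads to its decay. The gene had 21.6 and 22.4 TPM (22.0 ± 0.57, SD, n = 2), with 4404 and 4556 counts, so the libraries were close. The leading transcript, of 8300 bases, carried 57.4% and 62.8% of the gene's TPM. Its miR-7 site lies at transcript bases 2935 to 2959. A different route to the same microRNA is represented by C230004F18Rik (chrX:61116378-61292484, plus strand), Cdr1os in RefSeq, whose strand also gives rise to a circular RNA rich in miR-7 sites. C230004F18Rik had 1.5 and 1.32 TPM, near the threshold, and the gene tables do not tell linear from circular RNA. Its leading transcript of 3354 bases held 123 matches to the miR-7 seed (the letters GTCTTCC, transcript strand). The most in any other lincRNA gene was 8, and 11.1% of all lincRNA genes and 23 of 116 members (19.8%) held any. The sequences show mature miR-7a (RefSeq, GRCm38.p6, chr7:78888295-78888317, plus strand) with its seed, bases 2 to 8, in capitals, the site in 1700020I14Rik with the bases that pair with the microRNA in capitals (chr2:119602107-119602191, plus strand), and the 120 bases of C230004F18Rik with the most seed matches, 7, in capitals (chrX:61183660-61183779, plus strand).
mmu-miR-7a-5p: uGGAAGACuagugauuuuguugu
1700020I14Rik: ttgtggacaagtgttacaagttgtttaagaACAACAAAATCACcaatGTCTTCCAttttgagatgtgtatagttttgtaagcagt
C230004F18Rik: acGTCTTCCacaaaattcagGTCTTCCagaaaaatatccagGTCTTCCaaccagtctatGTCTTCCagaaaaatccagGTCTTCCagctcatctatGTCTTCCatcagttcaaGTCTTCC
In 1700020I14Rik the site pairs with microRNA bases 1 to 8 and 11 to 23, with 4 unpaired bases in the RNA across from 2 in the microRNA. The microRNA itself was not measured here.

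Lncpint, an RNA induced by p53, was measured at 13.99 TPM in the first replicate and 22.7 TPM in the other. Gm53, which lies 20352 bases from the start of the homeobox gene Hoxb9, had 14.8 and 20.6 TPM. Gm28382, 11623 bases from the start of Traf3ip1, had 13.9 and 16.4 TPM. Gm36723 had 16.1 and 13.6 TPM and AI480526 had 10.8 and 14.6 TPM. All of these stood above 10 TPM in each library.

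Bc1 (chr7:144914470-144914637, plus strand), a short RNA made by RNA polymerase III and derived from a transfer RNA, is known from neurons, where it represses translation. It was listed at 12.3 and 9.21 TPM in the gene tables, on 33 and 23 counts. It was at 0 in a second set of tables that the authors deposited for the same libraries, called read-based here, as against the alignment-based tables used elsewhere. The part of transcript length in that difference was not tested. The transcript, of 168 bases, is shown whole.
Bc1: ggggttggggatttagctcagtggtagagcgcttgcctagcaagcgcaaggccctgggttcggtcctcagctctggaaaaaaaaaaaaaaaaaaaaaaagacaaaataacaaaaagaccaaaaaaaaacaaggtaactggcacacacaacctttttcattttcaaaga
Its effective length, the part of a transcript in which a fragment can start, was 69 bases in the alignment-based tables and 38.8 bases in the read-based table of replicate 1.

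Among 55 symbols of characterised long noncoding RNAs, a list drawn up with earlier results of these data known, 40 were found as noncoding genes, 18 of them at 1 TPM or more in both libraries and 11 of those among the members. The 11 were Gm26917, Gm42418, 2900097C17Rik, Lncpint, Bc1, Lncbate1, Epb41l4aos, Pvt1, Jpx, Ftx and Bvht. Of these, Gm42418 is the gene that RefSeq lists as a ribosomal RNA related pseudogene. Pvt1, which neighbours Myc at 52595 bases, had 3.53 and 3.63 TPM. The X inactivation center genes Jpx and Ftx had 2.74 and 2.08 TPM and 2.05 and 2.03 TPM, while Xist, their neighbour that silences the X chromosome in females, had 0.01 TPM in each of these male libraries. Epb41l4aos had 3.17 and 4.90 TPM. Bvht, a regulator of heart muscle fate, had 1.42 and 1.92 TPM on 27 and 34 counts. Of the 22 genes on the list with lincRNA transcripts only, 11 were under 1 TPM in at least 1 library, among them Lockd with 0.19 and 0.20 TPM, Trp53cor1 with 0.09 and 0.10 TPM and Miat with 0.13 and 0.06 TPM. Hotair, Hottip, Paupar, Pantr1 and Chaer1 were listed at 0 in both. The other 7 genes at 1 TPM or more carried other classes in the annotation, among them Tug1 at 24.0 and 25.6 TPM, Hand2os1 at 16.2 and 14.8 TPM and Firre at 13.6 and 16.5 TPM. Zfas1 (10.6 and 12.4 TPM), Hoxb5os (6.32 and 6.28 TPM), Dancr (2.53 and 2.76 TPM) and Airn (1.90 and 3.42 TPM) made up the rest. Gm14005, which RefSeq names Morrbid, was also a member, at 1.80 and 1.65 TPM, and so was 1700020I14Rik, which RefSeq names Oip5os1. The list holds both under their RefSeq names, which did not match the symbols in the tables, so neither is among the 11. Norad and 2900097C17Rik are both on the list and name the same gene.

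Lncbate1, a lincRNA described in brown fat, had 9.53 and 8.06 TPM, on 264 and 208 counts. Its log2 ratio of replicate 2 over replicate 1 was -0.34 (95% counting interval -0.61 to -0.07). The brown fat gene Ucp1 had 629 and 303 TPM, and the median log2 ratio of the 7 brown adipocyte markers was -1.004, with 6 of 7 lower in replicate 2. Lower medians were also found for the white adipocyte (-0.518, 6 of 6 lower, summed levels of 3291 and 2611 TPM), red cell (-0.765, 5 of 5) and chromaffin cell markers (-0.268, 8 of 8). The medians were 0.048 for adrenal cortex (2 of 8 lower), 0.099 for endothelium (0 of 5) and -0.054 for macrophage markers (4 of 5). Those of lymphocyte (0.297, 1 of 5 lower) and liver markers (0.989, 1 of 6) were higher, with 1 marker of each list at 1 TPM in both libraries. The part of any of these cells in the level of Lncbate1 was not tested.

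Of the 116 members, 33 held a stretch of 150 bases or more that was at least 95% identical, on the same strand, to a transcript of another gene. For 16 of them the match was a transcript annotated as protein-coding, and for 13 the stretch covered 90% or more of the member's transcript. The search for such stretches was run for the members only, so these numbers have no background in other genes. The quantifier reported a spread above 0 for the count of replicate 1 in 22 of these 33 members and in 3 of the 83 others. That spread was 0 for 91 of all 116 members, and for 10238 of 12995 genes at the same threshold of 1 TPM. Gm10076 (chr14:105681828-105682211, plus strand) is the clearest case of a near-identical stretch. It was listed at 31.9 and 32.9 TPM, and it is 99.5% identical over 383 bases to the messenger RNA of the ribosomal protein gene Rpl41, which had 876 and 905 TPM. Its leading transcript holds an open reading frame of 78 bases, or 25 codons before the stop, shown in capitals (chr14:105681829-105681956, plus strand, GENCODE M21 transcript).
Gm10076: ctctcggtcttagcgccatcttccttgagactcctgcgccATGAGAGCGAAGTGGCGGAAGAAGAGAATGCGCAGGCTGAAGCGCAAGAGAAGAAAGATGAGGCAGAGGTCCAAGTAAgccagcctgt
RefSeq lists Gm10076 as a pseudogene. The read-based tables put it at 0 TPM in both libraries and Rpl41 at 2297 and 2503 TPM. Gm27000 (chrX:88759471-88760312, minus strand) matched the imprinted noncoding gene Meg3 with 99.9% identity over its 842 bases, although Meg3 lies on chromosome 12. It had 4.45 and 5.69 TPM against 197 and 262 TPM for Meg3. Gm49749 was identical over all 652 bases to a stretch of Pcnx, inside which it lies, and had 2.05 and 3.66 TPM. Gm45733 matched Baz2a with 99.5% identity over 410 bases and had 3.06 and 4.87 TPM. The levels of these members are uncertain, because the counting could divide their reads between the copies.

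Position in the annotation was not used to choose the members, but their level was. All lincRNA genes were taken whatever their level, with the members among them. The shares of position and structure here and below therefore do not compare genes at like levels. A divergent protein-coding start (opposite strand, pointing away) lay within 1000 bases of 18 members (15.5%), against 249 of all 5844 lincRNA genes (4.26%). At 5000 bases the shares were 17.2% and 6.93%. The median distance to the nearest protein-coding start was 22790 bases for members and 70220 bases for all lincRNA genes. The partner was itself at 1 TPM or more in both libraries for all 18, and for 188 of the 249 (75.5%). AI480526, the member of highest level in this group, starts 527 bases from Setd1b, a histone methyltransferase gene, which had 5.92 and 7.29 TPM against 10.8 and 14.6 TPM for AI480526. Gm20186 starts 372 bases from Lsm8 (7.55 and 6.82 TPM), a gene of the splicing machinery. 5031425E22Rik had 9.0 and 10.7 TPM and starts 172 bases from Kmt2e (17.1 and 22.0 TPM), which codes for a chromatin protein. 2010320M18Rik had 6.11 and 6.32 TPM and starts 102 bases from Pik3r2 (14.2 and 16.3 TPM), a regulatory subunit of PI 3-kinase. Fam120aos had 4.07 and 3.75 TPM and starts 270 bases from Fam120a (46.4 and 49.9 TPM). Of these 5, AI480526 and Gm20186 were listed above their partner in both libraries and the other 3 below. The level of Gm20186 is uncertain, as it shares near-identical stretches with other genes and had a read-based TPM of 545 and 699. Gm17586 (2.39 and 2.19 TPM), 168 bases from Mafg (13.9 and 18.2 TPM), was picked after its values were seen.

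**Figure D2:**
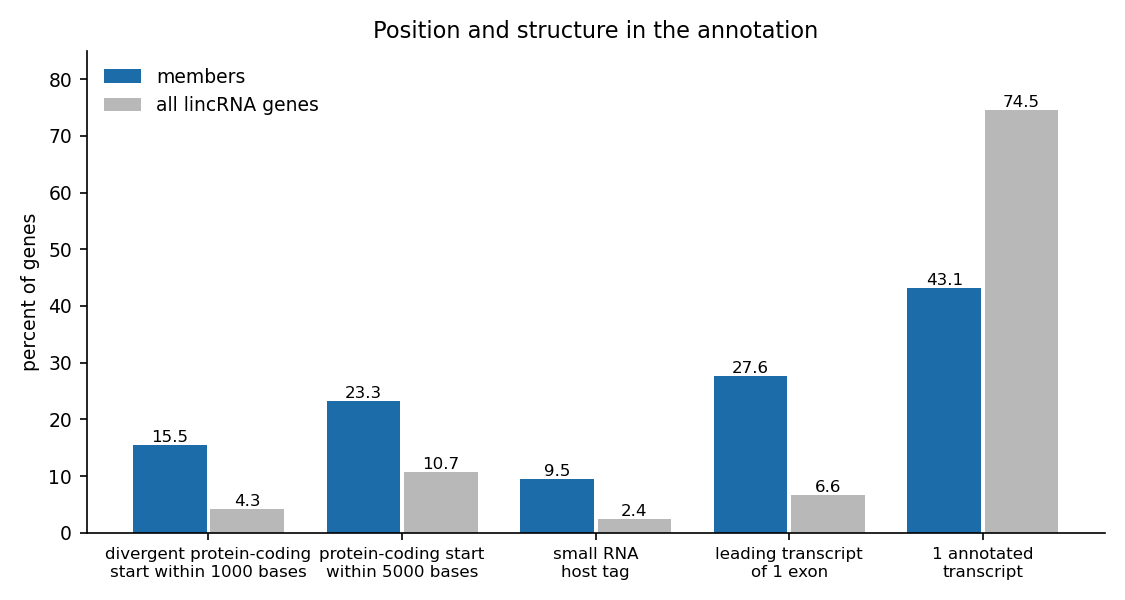
Percent of genes (y axis, from 0) with each feature of position or structure (x axis), for the 116 members in blue and all 5844 lincRNA genes, whatever their level, in grey. The members had more divergent protein-coding starts (15.5% against 4.26%) and fewer genes with 1 annotated transcript (43.1% against 74.5%).

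Several members overlapped other genes on the same strand, where a read's position alone does not name its gene. Gm17322 (chr9:57998041-58007451, plus strand; 3.33 and 3.50 TPM) overlaps the 5′ end of Cyp11a1, the enzyme that begins steroid synthesis, which had 2148 and 2298 TPM. Gm26945 (chr12:109640341-109642351, plus strand) lies inside Rian, an imprinted noncoding gene of the Dlk1-Meg3 domain that had 175 and 197 TPM. In all, 6 members overlapped a protein-coding gene on the same strand (5.17%, against 1.81% of all lincRNA genes), and 9 lay within 5000 bases downstream of a protein-coding gene on their own strand (7.76% against 3.22%), the closest being Gm43848, 120 bases past Rap1a. On the opposite strand the shares were 7.76% and 7.03%.

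The annotation marks 11 members as hosts of small RNAs (9.48%, against 2.43% of all lincRNA genes). 6720427I07Rik (2.96 and 3.34 TPM) holds Mirlet7d, Mirlet7f-1 and Mirlet7a-1, members of the let-7 family that restrains growth genes. E130102H24Rik (1.68 and 2.81 TPM) holds Mir101a, Gm27028 (1.46 and 1.84 TPM) holds Mir30c-2, and Ftx holds Mir421 and Mir374b. A leading transcript of 1 exon was annotated for 32 members (27.6%), against 6.64% of all lincRNA genes, and 1 transcript only for 50 members (43.1% against 74.5%). The leading transcript was the one of highest mean TPM, or the longest on a tie. For a gene with no detected transcript it was therefore the longest, so the shares with 1 exon rest on unlike choices.

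RefSeq's table of promoters (GRCm38.p6, 250 bases before to 50 after a start) matched 53 members by name, and for 35 the RefSeq start was within 100 bases of the leading transcript's start. In these 35 windows the median GC content was 59.0%, against 52.7% in all 32851 windows. The ratio of observed to expected CpG was 0.714 at the median, against 0.384 in all windows and 0.567 in those of protein-coding genes. A ratio of 0.6 or more was found in 21 of 35 members (60%), in 35.8% of all windows and in 47.7% of protein-coding windows. The members were chosen by their level here, while the other windows were taken whatever the level of their gene. These shares therefore do not compare lincRNA with protein-coding promoters at like levels. The letters of 5 motifs were searched on both strands. The ETS core CCGGAAGT was in 3 of 35 windows (8.57%, against 3.89% of all), those of 2900076A07Rik, D130017N08Rik and 5430416N02Rik. TATAAA was in 2 (5.71% against 13.6%), those of Jpx and Gm20300. The NRF1 site was in 0, against 0.971% of all windows. The cyclic AMP element TGACGTCA was in 1 (2.86% against 1.79%), that of 1300002E11Rik (7.87 and 6.40 TPM). That window also holds the annotated start of the protein-coding gene Map3k13 on the same strand (chr16:21794346), which had 0.36 and 0.47 TPM. It is therefore not a window of the lincRNA gene alone. The letters CAAGGTCA, bound by Nr5a1 (SF-1), the regulator of steroid-producing genes, were in 1 (2.86% against 1.56%), that of E330017L17Rik (7.78 and 7.99 TPM). These 2 windows are shown because both factors act in the adrenal cortex, with the motif in capitals (chr4:129905976-129906275 and chr16:21794097-21794396, plus strand).
E330017L17Rik: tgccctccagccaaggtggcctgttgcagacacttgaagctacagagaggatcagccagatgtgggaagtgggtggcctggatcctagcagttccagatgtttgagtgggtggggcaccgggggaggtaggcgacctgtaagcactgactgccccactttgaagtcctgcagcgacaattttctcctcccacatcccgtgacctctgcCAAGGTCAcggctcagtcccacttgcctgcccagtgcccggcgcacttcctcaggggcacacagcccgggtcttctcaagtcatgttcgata
1300002E11Rik: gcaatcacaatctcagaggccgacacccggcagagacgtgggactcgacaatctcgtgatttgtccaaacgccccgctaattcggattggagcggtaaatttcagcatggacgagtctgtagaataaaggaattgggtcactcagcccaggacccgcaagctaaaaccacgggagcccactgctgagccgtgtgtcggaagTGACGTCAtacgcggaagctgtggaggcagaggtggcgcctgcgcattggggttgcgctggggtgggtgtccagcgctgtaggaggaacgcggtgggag
A match is a description of letters, and binding was not measured.

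The libraries were compared for the 66 members whose counts averaged at least 100. Log2 ratios of replicate 2 over replicate 1 used counts scaled by TMM (a factor that sets most genes to no change). Gm26945 had 114 counts and 1.53 TPM in replicate 1 and 235 counts and 3.40 TPM in replicate 2. The log2 ratio was 1.05 (95% counting interval 0.72 to 1.39). Of the other genes of its domain, Rian, in which it lies, had a ratio of 0.12, Meg3 0.30, Mirg 0.29, Dlk1 -0.25 and Rtl1 -0.30. With read-based counts the ratio of Gm26945 was 0.84, under 2-fold. Gm10032 went the other way, with 211 counts and 3.19 TPM in replicate 1 and 89 counts and 1.43 TPM in replicate 2, so that its ratio came to -1.23 (-1.61 to -0.87). These were the only 2 of the 66 more than 2-fold apart, 1 higher (1.52%) and 1 lower (1.52%), where 0.19% of 12124 genes under the same filters were over 2-fold higher and 0.198% over 2-fold lower. With 1 member on each side, these shares rest on single genes.

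Lncpint had 404 and 626 counts, a ratio of 0.64 (0.46 to 0.82). The next highest were Gm49797 (0.43), D930016D06Rik (0.42), Gm28875 (0.42) and AI480526 (0.40). On the low side, Gm43672, which starts 510 bases from Tbl1xr1, had 177 and 95 counts, a ratio of -0.89 (-1.27 to -0.52). AC153155.2 (-0.56), Gm5165 (-0.44), AC132253.9 (-0.40) and D130017N08Rik (-0.36) followed. The counting interval excluded 0 for 25 of 66 members (37.9%), 15 above and 10 below, and for 38.9% of all genes, so the members' share was near the background. The median ratio was -0.02 for the members and -0.01 for all genes. The median size of the ratio regardless of sign was 0.21 for the members and 0.11 for all genes. Between 100 and 200 counts it was 0.25 for 30 members and 0.17 for 1228 genes, and at 400 counts or more it was 0.10 for 15 members and 0.09 for 8976 genes. Intervals cover counting error only.

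**Figure D3:**
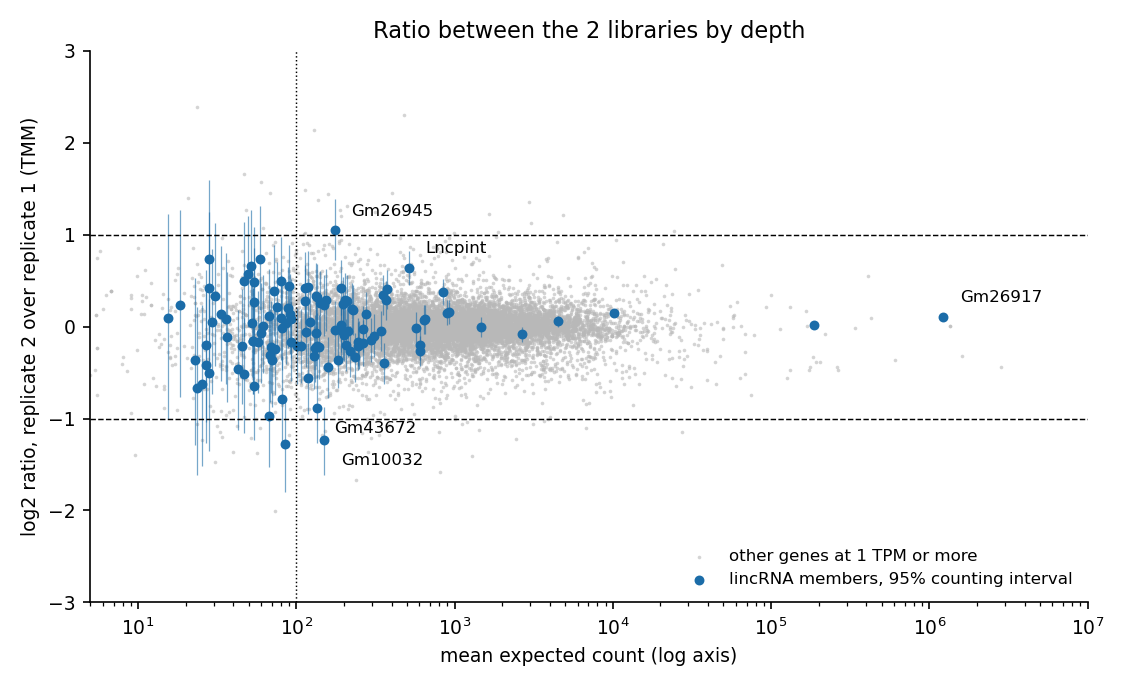
Log2 ratio of replicate 2 over replicate 1 (y axis, TMM scaling) against mean expected count (x axis, log scale), with members in blue, their 95% counting intervals as vertical lines, and all other genes at 1 TPM or more in grey. Right of the dotted line at 100 counts, only Gm26945 (1.05) and Gm10032 (-1.23) among the members pass the dashed lines at 2-fold.

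The read-based tables of the same libraries were compared with the alignment-based ones. Over all genes the read-based TPM was higher, by a median log2 difference of 0.83 in replicate 1 and 0.91 in replicate 2, and over the members by 0.90 and 0.98. After centring on the median of all genes, 6 members (5.17%) were over 2-fold higher in both libraries, where 0.77% of 12995 genes were, and 9 members (7.76%) were over 2-fold lower, where 3.92% were. Of the 33 members with a near-identical stretch elsewhere 11 were among these 15, and of the 83 others 4 were. Gm12840 had 10.2 and 12.5 TPM by alignment and 565 and 677 TPM in the read-based tables. Gm20186 had 12.7 and 12.3 TPM by alignment and 545 and 699 TPM in the read-based tables. These genes, on chromosomes 4 and 6, share 97.5% identity over 628 bases, and each matches Gm26809 on the opposite strand, Gm12840 with 97.1% identity over 513 bases and Gm20186 with 100% over 600 bases. Gm26809 had 0.05 TPM in each library. AC102496.1 (3.29 and 4.13 TPM by alignment, 21.3 and 30.03 TPM in the read-based tables), AC158975.2 (2.64 and 3.46 TPM, then 14.3 and 18.1 TPM) and Gm8066 (3.27 and 3.01 TPM, then 13.6 and 18.4 TPM) followed.

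On the low side, Gm10076, Bc1, Gm49207 and Gm47101 were listed at 0 in both read-based tables. Gm49207 had 12.7 and 6.87 TPM by alignment and is 99.6% identical over 268 bases to a transcript of Ahsa1. Gm47101 had 4.24 and 2.83 TPM and Gm45733, listed at 0 and 2.63 TPM in the read-based tables, had 3.06 and 4.87 TPM. Of the 9 low members, 8 had a leading transcript under 500 bases, as 18 of all 116 had, and 6 had a near-identical stretch elsewhere. For Gm49207 the effective length was 180 bases in the alignment-based table and 61.1 bases in the read-based table of replicate 1. The parts of length and of shared sequence in these differences were not tested apart.

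**Figure D4:**
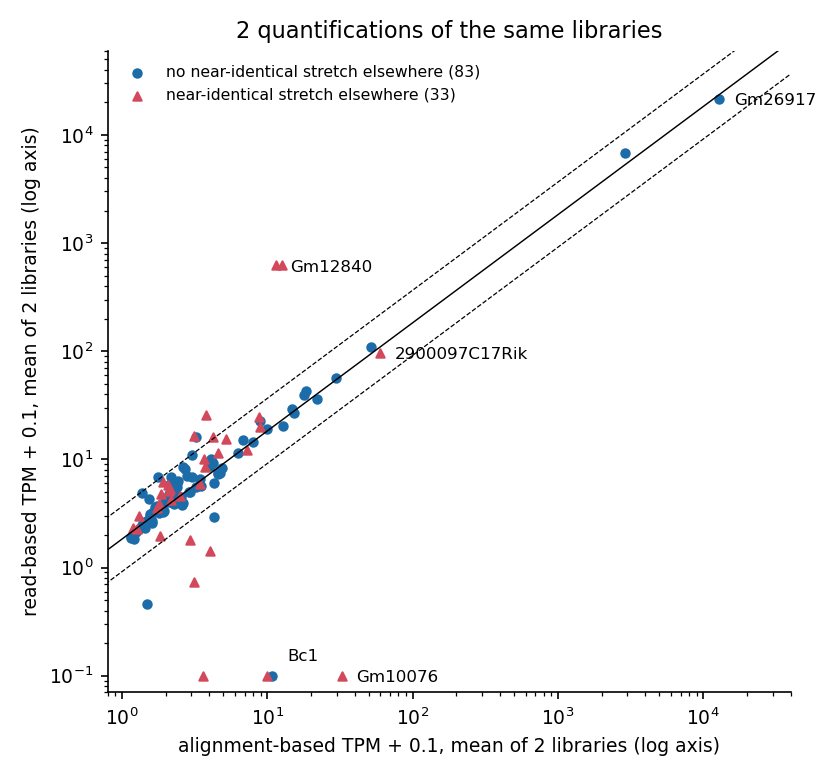
Read-based TPM (y axis) against alignment-based TPM (x axis), each plus 0.1, as the mean of the 2 libraries on log axes, with triangles for the 33 members that have a near-identical stretch elsewhere and circles for the 83 others. The solid line is the median of all genes and the dashed lines are 2-fold from it; Gm12840 lies above them and Gm10076 and Bc1 at the bottom, where the read-based value is 0.

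Isoforms were examined in the 66 members with 2 or more annotated transcripts. The transcript of highest TPM held a median of 62.8% of the gene's TPM (quartiles 51.4% and 89.2%), with 67.0% in replicate 1 and 65.6% in replicate 2. It held 90% or more in 15 members and under 60% in 26. The alignment-based and read-based tables named the same leading transcript in 48 of 66 members (72.7%). The lowest mean shares were in Jpx, with 16.8% and 18.8% on its leading transcript, Pvt1, with 19.8% and 20.4%, Lncpint, with 24.8% and 17.7%, AI480526, with 22.1% and 26.0%, and Ftx, with 24.3% and 27.9%. These 5 genes have 11, 10, 16, 7 and 12 annotated transcripts. 2900097C17Rik, with 2 annotated transcripts, had 99.4% and 90.4% on its leading one. For Lncpint, Lncpint-204 led in both quantifications, while for Jpx, Pvt1 and Ftx the quantifications named different transcripts.

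**Figure D5:**
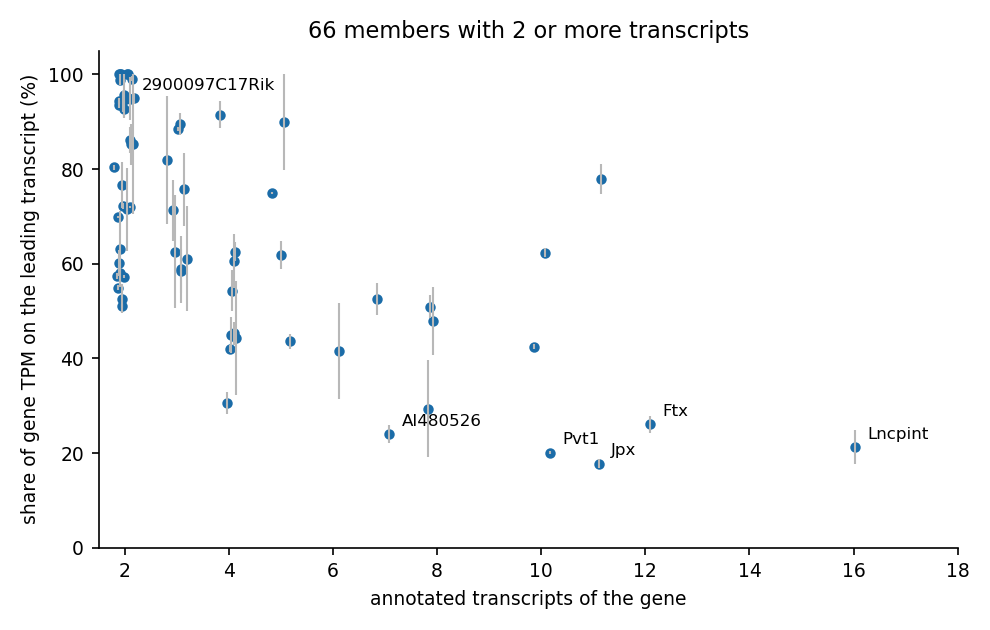
Share of the gene's TPM on the leading transcript in percent (y axis) against the number of annotated transcripts (x axis, points spread sideways to show overlaps) for 66 members, with points for the mean and grey lines joining the 2 libraries. Jpx, Pvt1, Lncpint, AI480526 and Ftx have the lowest mean shares, with values by library between 16.8% and 27.9%.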

How the data were processed

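The authors deposited, for each of the 2 libraries, a gene table and a transcript table with expected counts and TPM, and a second transcript table with TPM next to estimated counts. Column names, per the file headers, are those that RSEM and kallisto write, and they are called alignment-based and read-based here. Per the labels the assembly is mm10. Which aligner and quantifiers were run, and in which version, is not given in the sources used here. The authors' gene tables also hold a posterior standard deviation of each count, a score used only to show which counts were divided between genes. All per-sample columns have a sample (0 others).

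Read-based values were summed per gene. Log2 ratios used expected counts plus 0.5, scaled by TMM (edgeR 4.0.16, R 4.3.3), with 95% exact intervals that cover counting error only. Differences between quantifiers used log2 of TPM plus 0.1, centred on the median of all genes at 1 TPM or more. Near-identical stretches (150 bases or more, 95% identity) came from BLAST+ 2.17.0 on GENCODE M21 transcripts, which also gave positions. Promoter, miRNA and gene names came from RefSeq (GRCm38.p6). Other steps used Python 3.11.15, pandas 2.3.3 and matplotlib 3.10.9, and the ratio step was tested on simulated data. How reads from the CAST allele were assigned was not tested.

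Named members are the 12 of highest mean TPM, the 6 each way of largest ratio between libraries at a mean of 100 counts or more, the 5 each way of largest difference between quantifiers, the 5 of lowest leading share, the 5 of highest TPM with a divergent start, those next to the threshold and the characterised list. Members named for copies, overlaps, small RNAs, motifs or RefSeq names were chosen after their values were seen. The members and lists were chosen with earlier results of these data known. Alternatives covered the TPM threshold, scaling, count minimum, fold, quantifier, centring, pseudocount, distance and each library left out.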

Additional observations from a re-analysis of the deposited data

How the results depend on the processing

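The number of members was 191 at a threshold of 0.5 TPM, 64 at 2 TPM and 269 with read-based TPM, which kept 109 of the 116. Requiring 1 library gave 126 to 134, and counting genes with at least 1 lincRNA transcript gave 139. The members' summed TPM was 16400 on average (15403 to 17398 by library), 30725 with read-based TPM and 605 without Gm26917 and Gm42418, an alternative chosen after seeing the data. The 2 members over 2-fold apart between libraries became 4 at 1.5-fold, with Gm43672 and Lncpint added, and 3 at a minimum of 20 counts or none, with Gm44386 added. With read-based counts they were Gm10032 and Gm43672, both lower, and Gm26945 (0.840) was not among them. The 15 members over 2-fold apart between quantifiers became 52 with no centring (47 higher, 5 lower) and 4 among members without a near-identical stretch, also chosen after seeing the data. They were 16 in either library alone. The median leading share of 62.8% was 95.3% over all members, since genes with 1 transcript count as 100%. Tmem250-ps changed sign, from a log2 ratio of -0.09 to 0.010 by the ratio of TPM, and the cause was not tested. Of 167 recomputed ratios of 43 named members, 154 moved by less than their counting error, 12 moved by more, and Tmem250-ps was the 1 reversal of a ratio whose interval excludes 0. Another 14 changed sign where the interval includes 0 or the counts are below the minimum, such as Gm20186 (-0.15 to 0.16) and Gm8066 (-0.213 to 0.247) with read-based counts. The members' median ratio lay between -0.025 and 0.062 over the alternatives. DESeq2 size factors were 1 for both libraries. No paired analysis was possible because all samples form 1 group. Counts limit the low members: 50 of 116 had a mean under 100.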
